A study of Homo sapiens with 12 samples.

Results

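Genes of DNA replication and fork repair were followed in clones of Colo320DM, a human colorectal cancer cell line, with and without knockdown of TET1 and with and without 5-aza-2'-deoxycytidine (5-aza-dC). The group was set by a list of 43 gene symbols, and a probe belonged to it if the array's annotation named one of them. All 43 genes were found, on 56 of 50599 distinct probes. Of the genes, 33 had 1 probe, 7 had 2 and 3 had 3 (PCNA, PRIM2 and FANCD2). Each gene is given below by its brightest probe, the one with the highest mean signal over all arrays, and other probes are given where they disagree. All 43 brightest probes were well above background on all 12 arrays, so every gene was tested in every comparison.

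RNA was measured on 12 one-colour arrays in 4 groups of 3. Control clones 1, 2 and 3 carried a negative control plasmid and knockdown clones 1, 2 and 3 carried plasmids expressing microRNA-type constructs against TET1, an enzyme that oxidises 5-methylcytosine. Every clone had been grown from a GFP-positive colony under G418 selection, so all groups shared that selection, and a clone is 1 colony. Every clone gave a mock-treated array and an array after 72 h in 1 µM 5-aza-dC. 5-aza-dC is a nucleoside analogue that is built into DNA during replication and traps DNA methyltransferases. Clones were the replicates, and p-values measure the spread between these few clones.

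Replication is prepared in G1, when CDC6 and CDT1 help to load the MCM2-7 helicase onto origins, and geminin (GMNN) blocks reloading later. In S phase MCM10 and the GINS complex help to activate the helicase, DNA polymerase alpha and primase (POLA1, POLA2, PRIM1, PRIM2) lay primers, the RFC complex loads the sliding clamp PCNA, and polymerases delta and epsilon extend the strands. FEN1 and LIG1 process and join lagging-strand fragments, RPA1 to RPA3 coat single-stranded DNA, and CHEK1, CLSPN, TIMELESS, BRCA1, BRCA2 and FANCD2 guard stalled forks. Many of these genes are transcribed at the G1/S transition under control of E2F transcription factors, of which E2F1 and E2F2 are themselves among the 43.

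Promoter sequences are shown because this shared E2F control is the best known feature that links the genes. RefSeq windows (GRCh38.p14) of 250 bases before to 50 bases after the start of transcription were matched for 37 of the 43 genes. They were searched on both strands for TTTCCCGC, TTTCGCGC, TTTGCCGC and TTTGGCGC, 4 forms of an E2F-type motif. These forms can overlap each other where they share the GCGC core. At least 1 match was found in 21 of the 37 windows (56.8%), against 1164 of 35116 windows of the table (3.31%). Stretches of 30 bases that end before the start are printed as examples for 6 of the genes with a match. They run 5′ to 3′ on the strand of the gene, with the matches in capitals.
POLE: ctgggtgggagcGCGCCAAAtttctcccct
MCM7: ccggtcacgtggggggcgacgTTTCGCGCc
POLA2: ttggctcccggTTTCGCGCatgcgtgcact
PCNA: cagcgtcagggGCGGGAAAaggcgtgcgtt
MCM6: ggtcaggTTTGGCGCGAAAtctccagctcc
E2F2: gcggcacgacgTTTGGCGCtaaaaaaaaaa
The POLE stretch lies at chr12:132687343-132687372 on the minus strand and the MCM7 stretch at chr7:100101398-100101427 on the minus strand. POLA2 is shown from chr11:65261898-65261927 on the plus strand and PCNA from chr20:5126663-5126692 on the minus strand. MCM6 is shown from chr2:135876511-135876540 and E2F2 from chr1:23531257-23531286, both on the minus strand. In MCM6 a pair of matches on opposite strands overlap. A match is a description of the letters and not a measured binding site.

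The signal of every probe is given as log2 relative to the 75th percentile of its array, so a value can be below 0, and values of different probes are not set against each other. The 75th percentile of the raw signal ranged from 360.6 to 541.8 between arrays, and 45.7% to 52.9% of the probes of an array were well above background. TET1 itself was lower in the mock-treated knockdown clones, at 3.60, 3.51 and 3.57 against 4.56, 4.23 and 4.67 in controls (difference −0.93, two-sided exact permutation p = 0.1, the smallest that 3 against 3 allows). After 5-aza-dC it was 2.98, 4.31 and 3.35 against 4.06, 4.42 and 4.16, so treated knockdown clone 2 lay among the controls by this probe (difference −0.67, exact permutation p = 0.3). By both other TET1 probes all 3 treated knockdown clones lay below all controls. After mock treatment this held for 1 of these probes. By the other, knockdown clone 1 at −1.14 lay just above control clone 3 at −1.146 (exact permutation p = 0.2). No TET1 probe was called by limma between knockdown and control clones. The limma adjusted p was 0.243 to 0.395 after mock treatment and 0.125 to 0.335 after 5-aza-dC. Of 11 colorectal epithelial marker genes, KRT8, KRT18, KRT20, CDX1 and CDX2 were well above background on all 12 arrays and CDH1 on none. None of the 3 endothelial or 5 neuroendocrine markers was well above background on all arrays, while COL1A1 of 6 fibroblast markers and PTPRC and CD14 of 4 leukocyte markers were. Some passed on part of the arrays. ENO2 did on 2 of 3 mock knockdown arrays and all others, CHGA and CHGB on all 3 treated control arrays, and CDH5 on all mock arrays. The epithelial marker KRT19 passed on no mock array, and VIL1 on 1 treated knockdown array alone.

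The 12 arrays lay on 2 slides in a pattern that bears on every result below. On slide 1 were the mock arrays of every clone but control clone 3, together with treated knockdown clones 1 and 3. The treated arrays of all control clones, treated knockdown clone 2 and the mock array of control clone 3 were on slide 2. So control clone 3 and knockdown clones 1 and 3 had both of their arrays on 1 slide, while control clones 1 and 2 and knockdown clone 2 moved from slide 1 to slide 2 with treatment. Among control clones, mock clone 3 on slide 2 differed from the mean of clones 1 and 2 by a median of 0.415 in size over the 43 genes, and by 0.505 over all probes tested. Among treated knockdown clones, clone 2 on slide 2 differed from the mean of clones 1 and 3 by a median of 0.472, and by 0.608 over all probes tested. The sign of these differences, which share no array, was the same for 29 of the 43 genes (67.4%) and for 73.7% of all probes tested. RPA3 was higher on slide 2 by 1.22 and 1.23 in these groups, whereas FANCD2 was lower by 0.65 and 1.09 and CHEK1 by 0.51 and 1.37. The array on slide 2 was also a different clone, so slide and clone cannot be told apart in these differences.

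**Figure D1:**
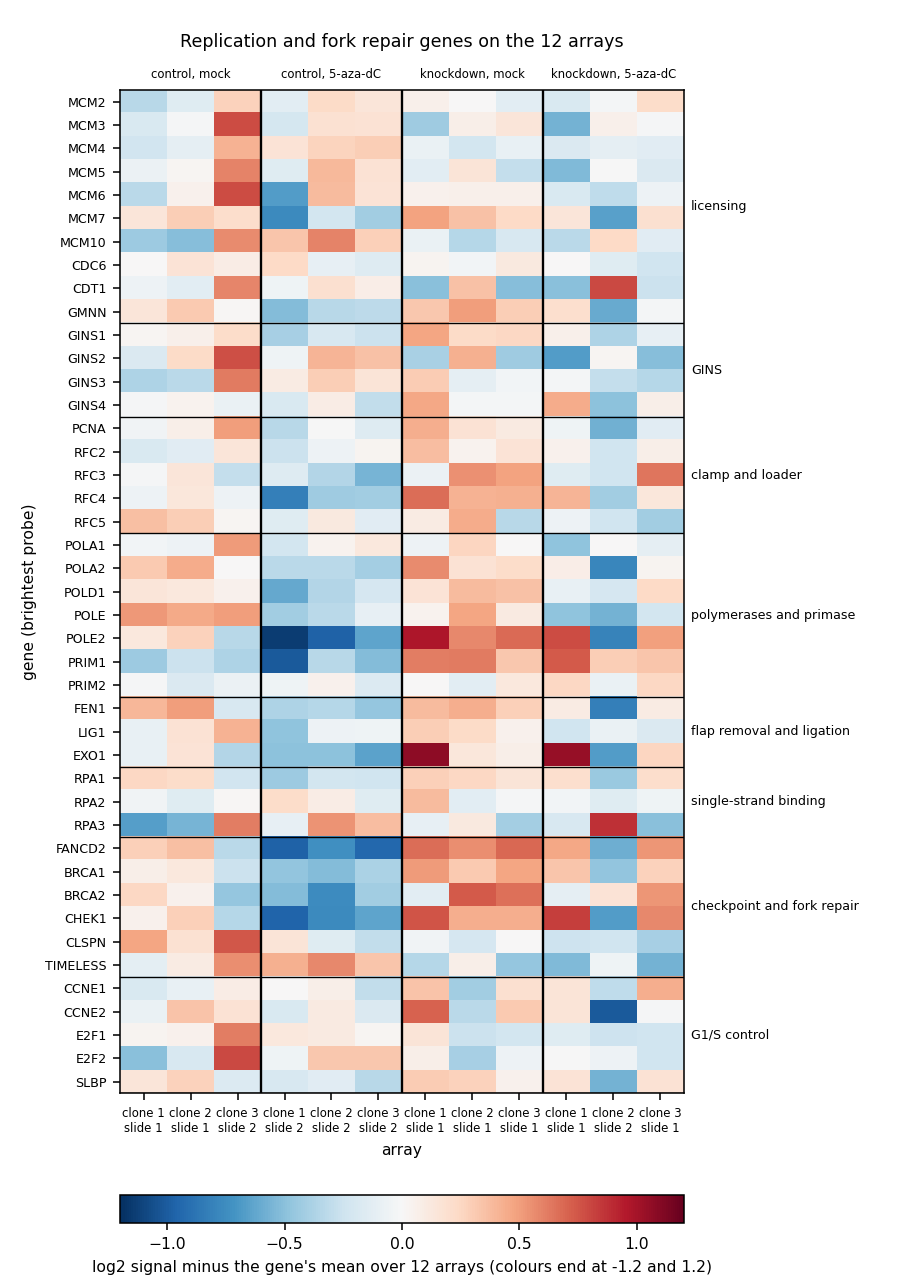
Heat map of the 43 genes (rows, grouped by role) on the 12 arrays (columns, by group, with clone and slide). Colour gives the log2 signal minus the gene's own mean over the 12 arrays. FANCD2, POLE2 and CHEK1 were lowest on the treated arrays of slide 2, and mock control clone 3 stood apart from control clones 1 and 2 for RPA3, MCM10 and E2F2.

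5-aza-dC was compared with mock treatment to ask how replication genes behave when DNA methylation is inhibited. In a fit over all 6 clones without pairing of their arrays, 4 of the 43 genes were called, all of them lower after treatment. They were POLE (catalytic subunit of polymerase epsilon), GINS1 (a subunit of the GINS helicase complex), GMNN and FANCD2 (a Fanconi anaemia protein loaded at damaged forks). Over all 27287 probes tested, 13.2% were called, 7.29% as higher and 5.95% as lower, and the 4 genes are read against the 5.95% called lower. In RNA of whole cultures, fewer cells that express a gene and less RNA per cell cannot be told apart. The median difference of the 43 genes was −0.27, against −0.05 over all probes tested, and 34 of the 43 differences (79.1%) were below 0, against 54.3% of all probes. With the array median as the scale 41 of the 43 were below 0, but the median of all probes was then −0.29. With slide as a block 39 were below 0, and the median of all probes was −0.08. No gene of the list was called higher.

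POLE was measured by a probe at chr12:133202232-133202291 (hg19). In control clones 1, 2 and 3 its signal was 1.06, 0.99 and 1.04 after mock treatment and 0.12, 0.21 and 0.44 after 5-aza-dC. In knockdown clones it was 0.57, 1.01 and 0.64 after mock treatment and 0.05, −0.03 and 0.32 after 5-aza-dC. Mock and treated arrays did not overlap in either type of clone, and the signal was lower in 6 of 6 clones, by 0.33 to 1.04. The mean difference was −0.70 (SE 0.13, limma adjusted p = 0.00565). A second POLE probe, at chr12:133233948-133234007, gave −0.92 (SE 0.22, limma adjusted p = 0.0229). Leaving out any 1 clone kept POLE called, but POLE alone when that clone was control clone 1 or 2 or any knockdown clone. Without control clone 3 FANCD2 and FEN1 were also called lower and MCM10 higher. With slide as a block the first POLE probe gave −0.65 (limma adjusted p = 0.0226). In the 3 clones with both arrays on 1 slide it was lower by 0.60, 0.52 and 0.33, and a fit to these clones alone gave −0.48 and an adjusted p of 0.0977. The decrease was larger in each clone that changed slide, with a mean difference of −0.92 there.

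GINS1 was 4.24, 4.28 and 4.44 in mock control clones and 3.82, 4.03 and 3.96 after treatment. In knockdown clones the values were 4.69, 4.44 and 4.46 and then 4.28, 3.84 and 4.12. The groups again did not overlap, and the decrease was of like size in all clones, from 0.25 to 0.60. The mean difference was −0.42 (SE 0.12, limma adjusted p = 0.0467), and it was −0.41 in the 3 clones measured on 1 slide, with an adjusted p of 0.103. With slide as a block the difference was −0.37 and the adjusted p 0.113.

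Like POLE, GMNN and FANCD2 moved more in clones whose arrays changed slide. GMNN was 4.40, 4.57 and 4.27 in mock control clones and 3.74, 3.93 and 3.95 after treatment, and went from 4.58, 4.76 and 4.55 to 4.46, 3.65 and 4.23 in knockdown clones. Its mean difference was −0.53 (SE 0.15, limma adjusted p = 0.0447), made of a mean of −0.81 in the clones that changed slide and −0.25 in those that did not. With slide as a block its adjusted p was 0.184, and with clone as a replicate block 0.0638. FANCD2, by a probe at chr3:10114581-10114640, went from 0.88, 0.95 and 0.27 to −0.38, −0.14 and −0.35 in control clones. In knockdown clones it went from 1.26, 1.15 and 1.28 to 1.06, 0.00 and 1.12, where only clone 2, which changed slide, was far below its mock array. The difference of −0.75 (SE 0.21, limma adjusted p = 0.0432) was −1.17 in clones that changed slide and −0.33 in those that did not, and the adjusted p was 0.135 with slide as a block. Another FANCD2 probe was also called, at −0.58, but the remaining one gave 0.16 and was not.

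**Figure D2:**
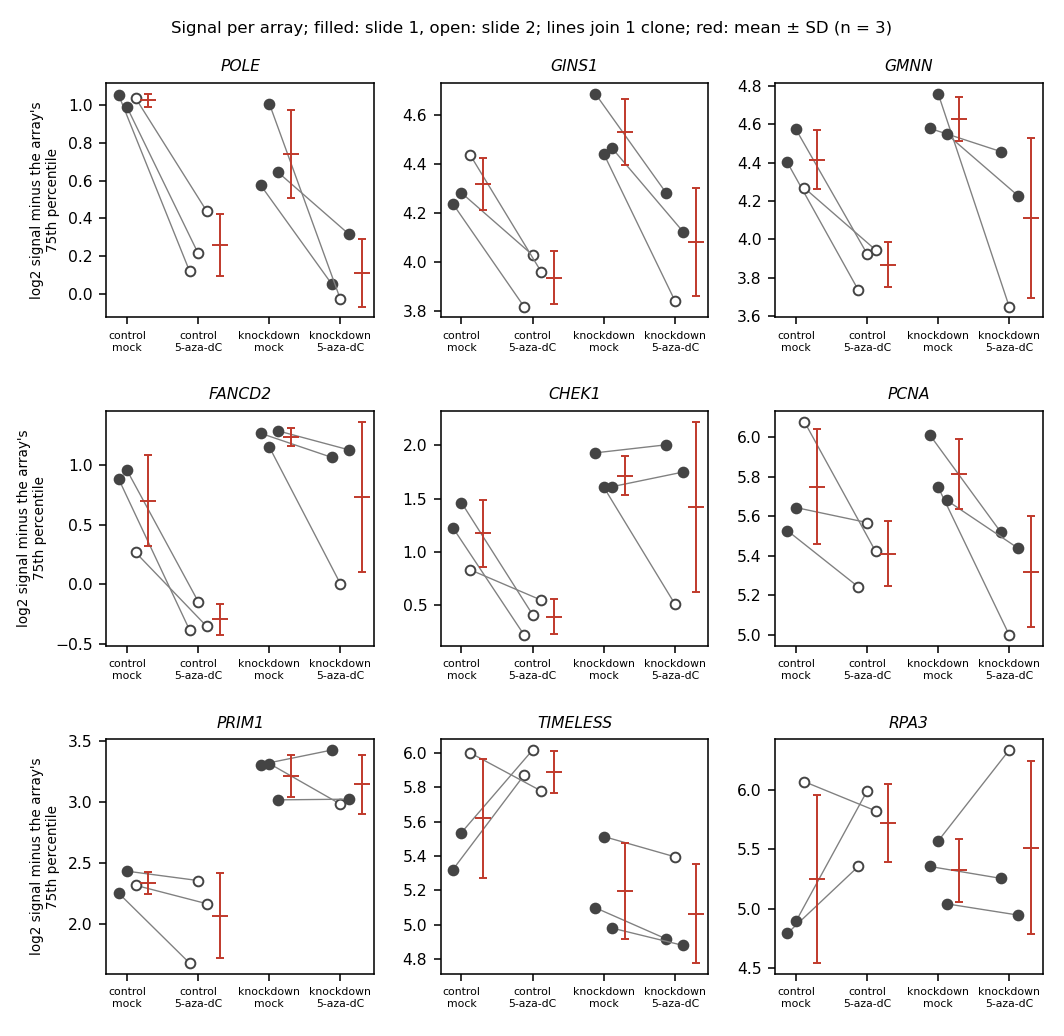
Log2 signal relative to the array's 75th percentile (vertical axis) of 9 genes in the 4 groups, 1 panel per gene. Grey lines join the mock and treated arrays of 1 clone, filled points are slide 1, open points slide 2, and red marks give the mean ± SD (n = 3). POLE and GINS1 were lower in every clone, POLE by more where the line runs from a filled to an open point. CHEK1 was below its mock array by over 1 only along such lines.

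The response of the remaining genes was described by clone. Signal was lower after treatment in 6 of 6 clones for 16 of the 43 genes (37.2%), and 17% of all probes tested behaved so. These 16 included the helicase subunit MCM7, PCNA, the clamp loader subunits RFC4 and RFC5, the polymerase subunits POLA2, POLD1, POLE and POLE2, the flap endonuclease FEN1 and the ligase LIG1. The others were GMNN, GINS1, FANCD2, BRCA1, CLSPN and CCNE2, a cyclin that drives entry into S phase. No gene of the list was higher in all 6 clones, although 12.7% of all probes were. Of these 16 genes, 12 did not pass the test over all clones. The adjusted p was 0.0515 for MCM7 (−0.58), 0.0545 for POLA2 (−0.57), 0.0588 for POLD1 (−0.41), 0.0605 for RFC4 (−0.51) and 0.0616 for FEN1 (−0.60), all by limma. With clone as a replicate block POLA2 (limma adjusted p = 0.0365) and RFC4 (0.0423) were called lower too, so that 5 genes were called in that fit, against 17.9% of all probes.

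By clone, the median difference of the 43 genes was −0.29, −0.18 and −0.30 in control clones 1, 2 and 3. It was −0.20, −0.40 and −0.10 in knockdown clones 1, 2 and 3. The number of genes with lower signal was 30, 24 and 42 in control clones and 39, 35 and 30 in knockdown clones. Over all probes tested the clone medians lay between −0.08 and 0.03. Control clone 3, with both arrays on slide 2, thus had the most genes below 0, and knockdown clone 3, with both arrays on slide 1, had no gene lower by more than 0.5.

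The responses of many genes differed between clones that changed slide and clones that did not. These were different clones, so slide and clone cannot be told apart here. Among the 3 clones measured on 1 slide, 29 of the 43 genes (67.4%) were lower in all 3, against 34.3% of all probes, and none was higher in all 3, against 19.9%. Among the 3 clones that changed slide, 23 genes (53.5%) were lower in all 3, against 36.4% of all probes, and 7 (16.3%) were higher in all 3, against 34.8%. These 7 were MCM4, MCM10, CDT1, RPA3, CCNE1, E2F1 and E2F2, and MCM4, RPA3, E2F1 and E2F2 were lower in all 3 clones measured on 1 slide.

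POLE2, the second subunit of polymerase epsilon, had the largest fitted difference over all clones, −0.76 (SE 0.26, limma adjusted p = 0.0776). It was lower by 1.27, 1.25 and 1.39 in the clones that changed slide and by 0.30, 0.19 and 0.19 in the others. CHEK1, a kinase that restrains the cell cycle when forks stall, differed by −1.01, −1.06 and −1.10 in the clones that changed slide and by −0.29, 0.08 and 0.14 in the others. MCM10, a helicase activator, differed by 0.77, 1.10 and 0.58 in the clones that changed slide, against −0.28, −0.25 and 0.05. RPA3, the smallest subunit of the single-strand binding protein RPA, gave 0.56, 1.09 and 0.76, against −0.24, −0.10 and −0.09. In each of these 4 genes the 3 clones that changed slide stood apart from the other 3, whichever plasmid they carried.

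PCNA and LIG1 were steadier. All 3 PCNA probes gave differences between −0.45 and −0.42 over all clones, with limma adjusted p from 0.0836 to 0.0935. By the brightest, PCNA was lower by 0.29, 0.08 and 0.75 in the clones that changed slide and by 0.66, 0.49 and 0.24 in the others. LIG1 differed by a mean of −0.31 in the first set of clones and −0.41 in the second, and CCNE2 by −0.34 and −0.41. CLSPN, an adaptor of the checkpoint kinase CHEK1, differed by −0.23 and −0.55, with its lowest value of −1.03 in control clone 3.

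**Figure D3:**
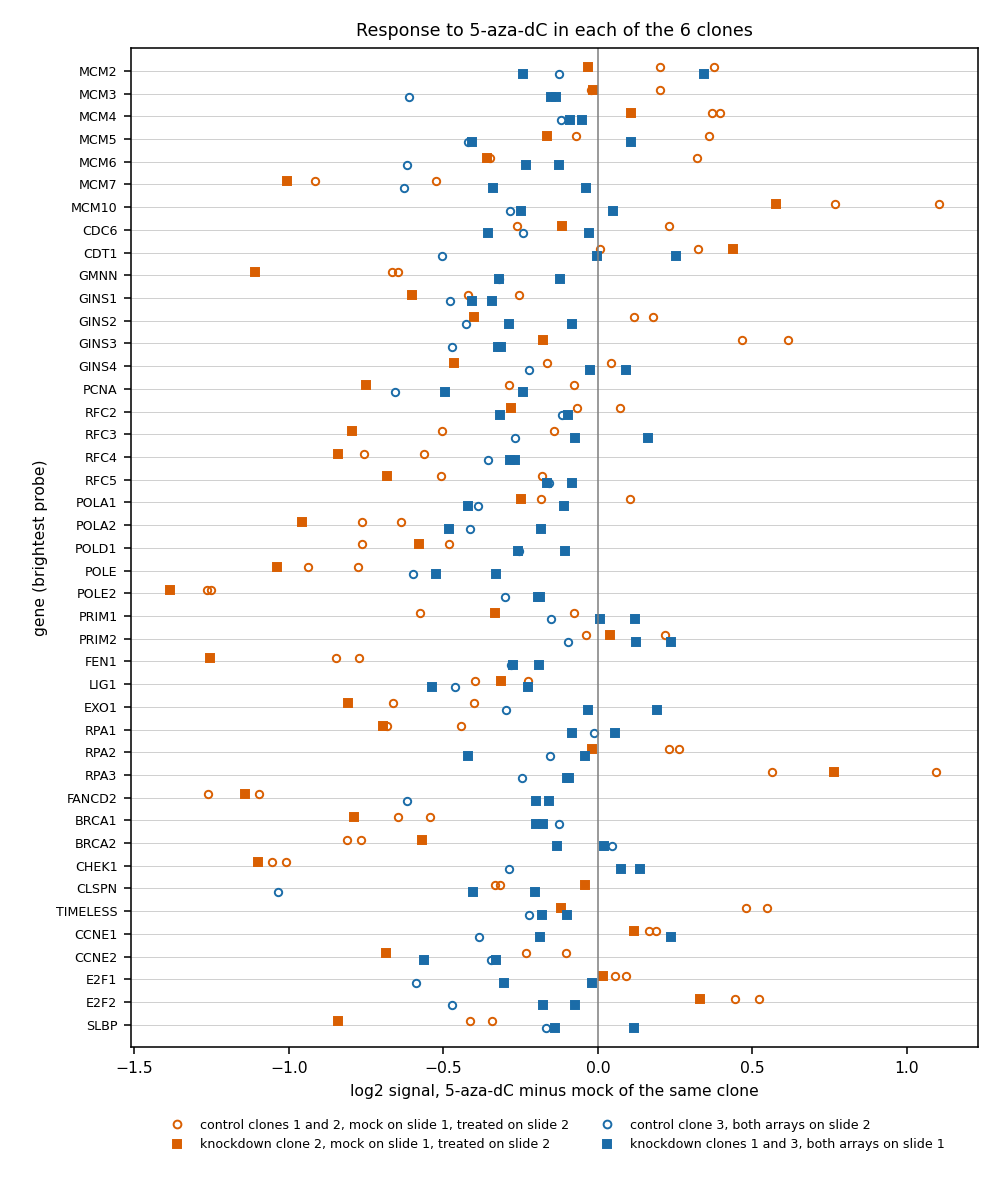
Difference in log2 signal between the 5-aza-dC and the mock array of the same clone (horizontal axis) for each of the 43 genes (vertical axis). Orange marks are clones whose arrays lay on different slides and blue marks clones with both arrays on 1 slide, with circles for control and squares for knockdown clones. Orange marks spread from −1.39 for POLE2 to 1.10 for MCM10, whereas blue marks lie between −1.03 and 0.35.

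By role, all 5 clamp and clamp loader genes and all 3 genes of flap removal and ligation (FEN1, LIG1 and EXO1) had differences below 0 over all clones, with medians of −0.30 and −0.36, although EXO1 was at 0.09 with slide as a block. All 4 GINS genes were below 0 (median −0.14), although GINS4 was at 0.09 with slide as a block, as were 6 of 7 polymerase and primase genes (median −0.41) and 5 of 6 checkpoint and fork repair genes (median −0.40). The exceptions were PRIM2, a primase subunit (0.08), and TIMELESS, a fork protection protein (0.07). With the array median as the scale they were at −0.16 and −0.17, but the median of all probes also moved, from −0.05 to −0.29. TIMELESS was at −0.20 with slide as a block. PRIM2 was below 0 by both of its other probes, at −0.30 and −0.27. Among 10 licensing genes 6 were below 0, and among 5 genes of G1/S control 3 were. Of the 13 further probes of these genes, 4 had the sign opposite to the brightest, namely both of PRIM2, 1 of RPA1 and 1 of FANCD2. Genes with an E2F-type match in the promoter window had a median difference of −0.27 and those without −0.30, and 18 of 21 and 12 of 16 were below 0.

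Within control clones alone 1 of 43 genes was called, POLE, at −0.77 (SE 0.16, limma adjusted p = 0.0494), against 5.22% of all probes (3.85% higher and 1.37% lower). Its second probe was called too, at −1.21. The POLE call was lost with clone as a replicate block (adjusted p = 0.0795) and with slide as a block (adjusted p = 0.139). For 14 genes (32.6%) the treated control clones lay below all mock control clones, a pattern seen in 18.8% of all probes, and for no gene did they lie above, against 13.6%. FANCD2 (−0.99), POLE2 (−0.94), CHEK1 (−0.78) and MCM7 (−0.69) gave differences of like size with limma adjusted p from 0.0647 to 0.0952, and for FANCD2 1 of the other probes gave 0.36. Leaving out any of the other 5 arrays than mock control clone 3 left no gene called. Without mock control clone 3, so that all mock arrays lay on slide 1 and all treated arrays on slide 2, 15 genes were called, while 35.5% of all probes were. Of these, 12 were lower and 3, MCM10, GINS3 and RPA3, were higher.

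Within knockdown clones no gene was called, against 2.04% of all probes, of which 2.03% were higher and 0.0118% lower. POLE had an unadjusted limma p of 0.0252 and was the only gene under 0.05 (2.33%), against 9.15% of all probes. For 12 genes (27.9%) the treated knockdown clones lay below all mock knockdown clones, against 11.7% of all probes, and for none above, against 7.46%. The largest differences were those of POLE (−0.63), POLE2 (−0.59), FEN1 (−0.57), POLA2 (−0.54) and CCNE2 (−0.53), with limma adjusted p of 0.43 or above. The median over the 43 genes was −0.24, and −0.17 with the arrays of slide 1 alone, against −0.09 and −0.10 over all probes.

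TET1 knockdown was compared with control clones under each treatment to ask whether loss of TET1 changed the replication genes. After mock treatment no gene was called by limma, against 0.137% of all probes (0.0323% higher and 0.105% lower). An unadjusted limma p under 0.05 was found for 4 genes (9.3%), against 11.2% of all probes. The median difference was 0.09, against 0.04 over all probes, and 28 of 43 differences were above 0. The knockdown clones lay above all control clones for 8 genes (18.6%), namely GINS1, RFC4, POLD1, POLE2, PRIM1, FANCD2, BRCA1 and CHEK1. Of all probes 12.2% did so. They lay below all control clones for 1 gene, CLSPN, against 9.11% of all probes.

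PRIM1, the catalytic subunit of primase, had the largest difference, and its probe was printed on 10 spots whose SD on an array was 0.032 to 0.109. Its signal was 2.25, 2.43 and 2.32 in mock control clones and 3.31, 3.32 and 3.02 in mock knockdown clones. After 5-aza-dC it was 1.68, 2.36 and 2.16 in control clones and 3.43, 2.98 and 3.02 in knockdown clones. All 6 knockdown arrays thus lay above all 6 control arrays. The differences were 0.88 (SE 0.18) after mock treatment and 1.08 (SE 0.26) after 5-aza-dC, with limma adjusted p of 0.276 and 0.17. With the mock arrays of slide 1 alone the difference was 0.87, and treated knockdown clone 2, on slide 2 like all treated control clones, lay above each of them.

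The next largest differences were further from the threshold. After mock treatment POLE2 differed by 0.72, CHEK1 by 0.55, FANCD2 by 0.53 and CLSPN by −0.55, with limma adjusted p from 0.387 to 0.468. POLE2 was 1.30, 1.45 and 0.84 in mock control clones and 2.14, 1.76 and 1.86 in mock knockdown clones. CHEK1 was 1.22, 1.46 and 0.83, against 1.93, 1.61 and 1.61. In both genes control clone 3, the array on slide 2, was the lowest. With slide 1 alone the differences were 0.54 for POLE2, 0.37 for CHEK1 and 0.31 for FANCD2.

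After 5-aza-dC again no gene was called by limma, against 0.096% of all probes (0.024% higher and 0.072% lower). An unadjusted limma p under 0.05 was found for 6 genes (14%), against 19.3% of all probes. The median difference was 0.03, against −0.01 over all probes. The knockdown clones lay above all control clones for 4 genes (9.3%), namely POLD1, PRIM1, FANCD2 and BRCA2, against 11.7% of all probes. They lay below for 5 (11.6%), namely MCM4, MCM10, GINS3, TIMELESS and E2F1, against 13.3%. POLE2 (1.07), CHEK1 (1.03) and FANCD2 (1.02) gave larger differences than after mock treatment, and with slide as a block they were 0.11, 0.12 and 0.30. The other FANCD2 probes gave 0.37 and −0.01. In CHEK1, treated knockdown clones 1 and 3 on slide 1 read 2.01 and 1.75, and clone 2 on slide 2 read 0.51, among the controls at 0.22, 0.41 and 0.54. Without treated knockdown clone 2, 10 genes were called, RFC4, POLE2, PRIM1, FANCD2, BRCA1, CHEK1 and EXO1 as higher and MCM10, GINS2 and TIMELESS as lower, while 31.4% of all probes were called. In that comparison all treated control arrays lay on slide 2 and all treated knockdown arrays on slide 1, so slide and knockdown cannot be told apart there.

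TIMELESS had the lowest difference after 5-aza-dC, −0.83 (SE 0.22, limma adjusted p = 0.188). It was 5.87, 6.02 and 5.78 in treated control clones and 4.92, 5.40 and 4.88 in treated knockdown clones, so the groups did not overlap and clone 2, on the same slide as the controls, lay below each of them. After mock treatment the values were 5.32, 5.54 and 6.0 against 5.10, 5.51 and 4.98, and the groups overlapped. With slide as a block the difference after 5-aza-dC was −0.49. PRIM1 and TIMELESS lie near each other on chromosome 12, with probes at chr12:57132284-57133111 and chr12:56810945-56811004 (hg19), and differed in opposite directions. The other genes of the list on chromosome 12, POLE and RFC5, differed by −0.28 and −0.16 after mock treatment and by −0.14 and −0.19 after 5-aza-dC, while the second POLE probe gave −0.82 and −0.23.

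**Figure D4:**
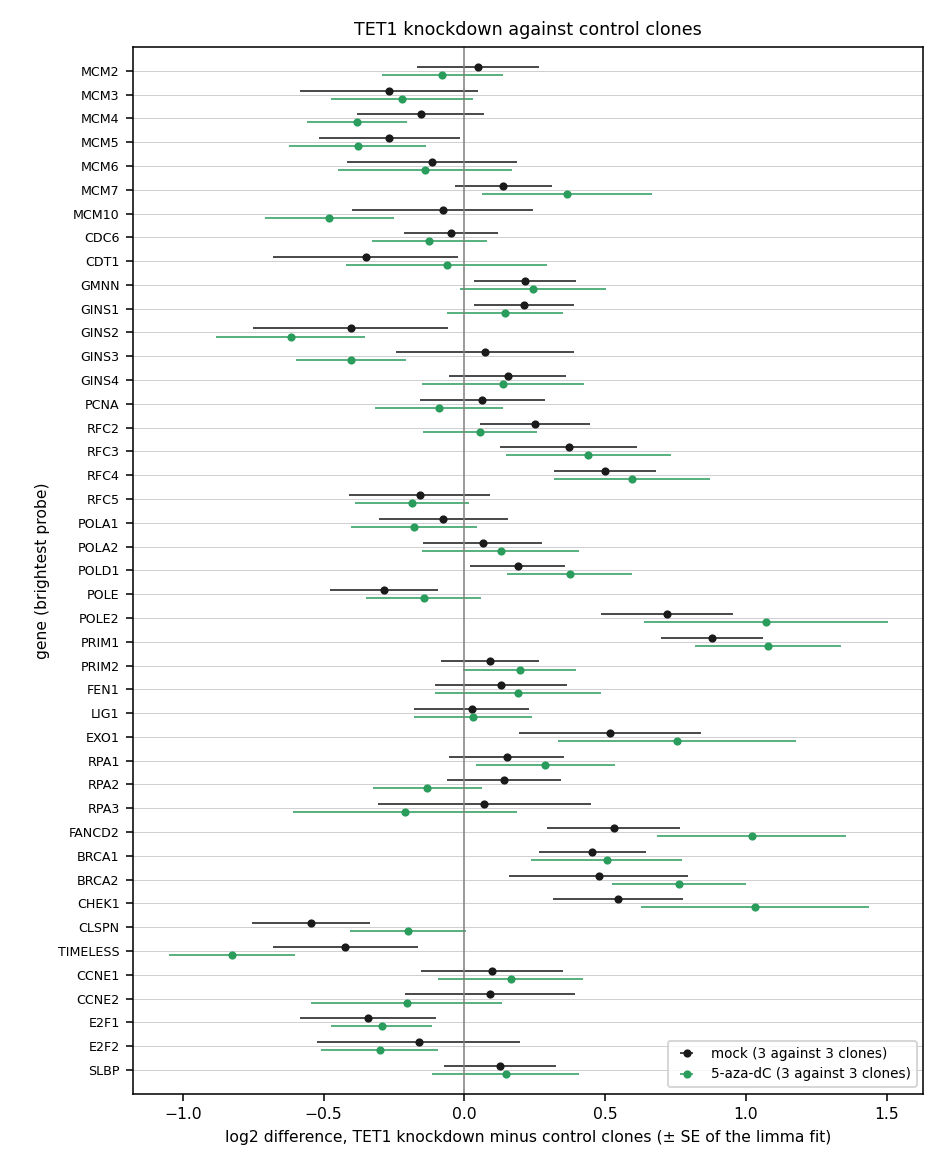
Log2 difference between TET1 knockdown and control clones (horizontal axis, ± SE of the limma fit) for the 43 genes (vertical axis), after mock treatment (black) and after 5-aza-dC (green), 3 against 3 clones each. PRIM1 stood at 0.88 and 1.08 and TIMELESS at −0.42 and −0.83, and no gene was called in either comparison.

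Whether knockdown changed the response to 5-aza-dC was tested by the interaction of clone type and treatment. No gene of the list was called by limma, against 0.0366% of all probes (0.0183% higher and 0.0183% lower). None had an unadjusted limma p under 0.05, against 2.47% of all probes. The interaction was within 0.49 in size for every gene, with the largest values for FANCD2 (0.49, SE 0.42), CHEK1 (0.49, SE 0.49), GINS3 (−0.48, SE 0.37), MCM10 (−0.40, SE 0.40) and TIMELESS (−0.40, SE 0.33), each at a limma adjusted p of 0.9995. At this spread, differences of such size were not detectable with 3 clones of each type.

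Other genes of the replication pathway were taken from a list chosen by function. Of its 57 genes, which covered origin recognition, synthesis, nucleotide supply, chromatin assembly, repair and G1/S control, 55 were tested, and CCND1 and CDKN1A did not pass the filter on dim probes. Over all clones their median difference after 5-aza-dC was −0.21, against −0.05 for all probes, and 42 of 55 (76.4%) were below 0, against 54.3%. Of these genes 4 were called lower and 1 higher, against 5.95% and 7.29% of all probes. The lower genes were ATAD5, which unloads PCNA (−0.95), HELLS, a chromatin remodeller needed for DNA methylation (−0.75), DNA2, a nuclease of Okazaki fragments (−0.73), and MCM8 (−0.55). POLD4, the smallest subunit of polymerase delta, was higher (0.51), and its difference was 0.38 to 0.72 in 6 of 6 clones. In control clones alone HELLS was called (−1.01, limma adjusted p = 0.0499), against 1.37% of all probes called lower. No gene of this list was called in the other comparisons. Of 20 mitotic genes, CENPE (−0.66) and KIF11 (−0.43), both motor proteins of the spindle, were called lower over all clones, against 5.95% of all probes. The median of the mitotic genes was −0.28, close to that of the 43 genes. Lower signal in 6 of 6 clones was seen for 20 of the 57 pathway genes and 7 of the 20 mitotic genes, against 17% of all probes tested.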

How the data were processed

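Per the file headers, the authors read each spot's intensity with Agilent Feature Extraction 10.7.3.1, which subtracts background, and arrays were not yet normalized to each other. Positions are those of the array design on hg19. The deposited series table held the same intensity rounded, with a largest difference of 0.497% for a spot. Control spots and outlier-flagged spots were dropped, spots of a probe were averaged as log2, and each array was centred on its 75th percentile. Probes well above background in at least 50% of their spots on at least 3 arrays of a fit were tested with limma 3.58.1 in R 4.3.3 (two-sided), and adjusted by Benjamini-Hochberg over all probes at a threshold of 0.05. The test was checked on simulated data with independent noise on each array, so without slide differences or a link between arrays of a clone.

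Clone numbers were taken to pair mock and treated arrays of a clone, since the labels give the same clone number to both. The main fits had no term for clone and took these arrays as independent. Only the differences by clone and the fits with clone as a replicate block used the pairing. Deviations from the group mean correlated at 0.213 to 0.525 across probes within a clone. Control and knockdown clones of 1 number are different clones. Slides were read from the file headers. No columns of other samples were present.

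The genes named per comparison are TET1, the genes called and the 5 with the largest difference; others named were chosen after their values were seen. The genes, roles and lists were chosen with earlier results of these data known. Alternatives covered scale, background correction, the deposited table, filters, probe averaging, slide, pairing, spread, the methods' t-test and leaving out arrays. Leaving out arrays for the medians was added after seeing the data.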

Additional observations from a re-analysis of the deposited data

How the results depend on the processing

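No gene that was called, or was among the 5 largest differences of a comparison, changed direction in it under any alternative that was run. Smaller differences did, such as those of PRIM2 and TIMELESS over all clones. Precision was limited by 3 clones a group and by slides that go partly with treatment. For 5-aza-dC over all clones the count of 4 genes was 7 with normexp and quantile normalization, 19 with the array median as the scale, 1 without the filter on dim probes, 1 with slide as a block, 0 with the replicate block and slide, and 0 with the replicate block in the clones measured on 1 slide. It was 5 with the replicate block alone, and 1 to 4 without each clone in turn. The share of all probes called was 13.2%, and moved to 14.6% with normexp and quantile normalization, 31.3% with the array median, 5.31% without the filter, 9.1% with slide as a block and 17.9% with the replicate block. It was 6.13% with the replicate block and slide, and 3.49% with the replicate block in the clones measured on 1 slide. Without each clone in turn it was 5.27% to 18.0%. In all these settings except that without control clone 3 the called genes were lower. The array median also moved the median of all probes from −0.05 to −0.29. A change of scale shifts all probes of an array alike, so the genes stood at −0.22 relative to that median under both scales by arithmetic. Relative to all probes they stood at −0.14 with slide as a block and −0.14 with the replicate block and slide. In the clones measured on 1 slide, with the replicate block, they stood at −0.12. In control clones the count of 1 became 7 with the array median as the scale (10.3% of all probes called). It was 0 without the filter, with it on every array, with slide as a block and with the methods' t-test (1.45% to 2.09%). It was also 0 with the replicate block (5.75%) and with all 12 arrays and slide as a block (5.09%). With both blocks it was 0, but no probe at all was called. Without each array it was 0 to 15 (0.134% to 35.5%). The count was 0 throughout in knockdown clones, for the interaction, and between knockdown and control clones after mock treatment. After 5-aza-dC that comparison gave 0 to 10 without each array (0% to 31.4% of all probes). Over all clones the replicate block ended the call of GMNN and added POLA2 and RFC4, and in control clones it ended that of POLE. It changed no other call among the 43 genes.

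The median difference of the 43 genes with the array median as the scale was −0.48 in control, −0.50 in knockdown and −0.51 in all clones. The medians of all probes on that scale were −0.23, −0.35 and −0.29. Between treated knockdown and control clones the median difference of the 43 genes was −0.15 with slide as a block. It was −0.23 with the replicate block and slide, but here that block matched different clones by their number only. Without each array or clone in turn the median was −0.35 to −0.21 in control clones, −0.29 to −0.17 in knockdown clones, −0.34 to −0.19 over all clones and −0.07 to 0.15 for the interaction. Between knockdown and control clones it was −0.01 to 0.15 after mock treatment and −0.025 to 0.155 after 5-aza-dC. The TET1 difference ran from −1.05 to −0.83 after mock treatment, and from −1.05 to −0.39 after 5-aza-dC. The methods' t-test gave 5 and 6 of the 43 genes an unadjusted p under 0.05 between knockdown and control clones after mock treatment and 5-aza-dC, 13 and 4 for 5-aza-dC in control and knockdown clones, and none after Benjamini-Hochberg adjustment. The share of all probes under 0.05 was not counted for this test.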
